A study of Mus musculus with 4 samples.

Results

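The ADAM, ADAMTS and ADAMTS-like genes were followed in whole lung of male C57BL mice after cigarette smoke. Members were all genes measured by a feature with exactly 1 gene symbol that began with Adam, Adamts or Adamtsl followed by a digit. There were 54 such genes among the 30142 genes of the array, namely 31 ADAM, 18 ADAMTS and 5 ADAMTS-like genes, each measured by a single feature. Adam12, Adam1a and Adam34 lay on features with 2 symbols and were left out, and Adamts2 was not analysed here. Of the 54, 30 had a mean signal above the expression floor, the 40th percentile of all genes: 14 ADAM, 11 ADAMTS and 5 ADAMTS-like genes. The label calls the set proteases, but the ADAMTS-like proteins have no protease domain and some ADAM proteins lack the zinc-binding site.

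Each array held 1 pool of lungs. The 4 pools were 5 mice in clean air for 2 weeks, 5 mice in smoke for 2 weeks, 5 mice in clean air for 4 weeks and 4 mice in smoke for 4 weeks. All mice were males that entered the study at 10 weeks of age and were 12 or 14 weeks old at the end. Exposure to mainstream smoke took 1 h on each of 5 days per week, and the control mice breathed clean air over the same time. With a single pool per group, a difference at 1 duration carries no error and no p-value. Pools differed in their smoke and, between durations, in the age of the mice.

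ADAM proteins are membrane-anchored metalloproteases that cut the outer part off other membrane proteins, a step called shedding, which releases cytokines, growth factors and adhesion receptors. ADAMTS proteins are secreted metalloproteases with thrombospondin repeats that act on the extracellular matrix, where one branch cuts versican, aggrecan and related proteoglycans and another trims procollagens. ADAMTS-like proteins keep the repeats and bind microfibrils. Tissue inhibitors of metalloproteinases hold many of these enzymes in check.

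The signal is given as log2 of the deposited value. Differences are log2 smoke minus log2 control of the same duration, and a difference of 0.58 is 1.5-fold. The deposited scale was taken as base 2; were it base e, every log2 difference would be 0.69 times the one given. A gene is said to have risen or fallen when limma, fitted with terms for smoke and duration and 1 residual degree of freedom, gave it an adjusted p under 0.05 (Benjamini-Hochberg). Such an effect covers 2 smoke and 2 control pools and is written with the standard error of limma's moderated test. Of the 6.38 degrees of freedom behind that error, 5.38 come from a prior, a spread shared by all genes. It is therefore not the spread of the gene's own pools, and its median over all genes above the floor was 0.105. The test takes the change of the smoke difference between durations as error, and part of the spread between pools may be technical. The median signal of all features was 58.8 to 61.7 per array, and 4 arrays give limited precision. Markers of the lung were present, as all 10 alveolar type 2 markers, all 8 alveolar type 1 markers and 9 of 10 endothelial markers lay above the floor, the remaining endothelial marker being not measured.

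Of the 30 members above the floor, 1 rose and 1 fell, while 28 did not pass. Adam8, a shedding protease of myeloid cells, rose 1.93-fold. Adamts1, a secreted protease that cuts versican and aggrecan, fell 2.26-fold. Over all 18084 genes above the floor, 1.15% rose and 0.315% fell. The calls moved with the scaling, for members and for all genes alike. Median centring over all features with 1 gene, which gave limma an infinite prior, called 4 members and 600 of 18084 genes, against 265 genes here. Centring on the genes above the floor called 0 members and 8 genes, with 7 members and 2034 genes at an unadjusted p under 0.05. Cyclic loess called 1 member and 52 genes. Without the duration term 0 members and 0 genes passed, with 7 members and 1163 genes at an unadjusted p under 0.05. At 2 weeks Adam8 and Adamts1 were also the members that differed by at least 1.5-fold, against 3.04% of all genes, and they were the 2 past 1.5-fold the same way at both durations, against 1.47%. At 4 weeks 5 members differed by at least 1.5-fold, against 4.04% of all genes. Adam8 was higher, against 2.53% of all genes, and 4 members were lower, against 1.5% of all genes and 1.66% of protein-coding ones. With base e, 2 members would pass 1.5-fold at 4 weeks, Adamts1 and Adamts15, and Adam8 would not. The 4 lower genes were Adamts1, Adamts15, Adamts5 and Adamts9, all proteases of the proteoglycan-cutting branch. Between the 2 control pools, 2 members differed by at least 1.5-fold, Adam8 and Adamtsl4, both higher at 4 weeks, against 4.09% of all genes in either direction and 1.85% higher.

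**Figure D1:**
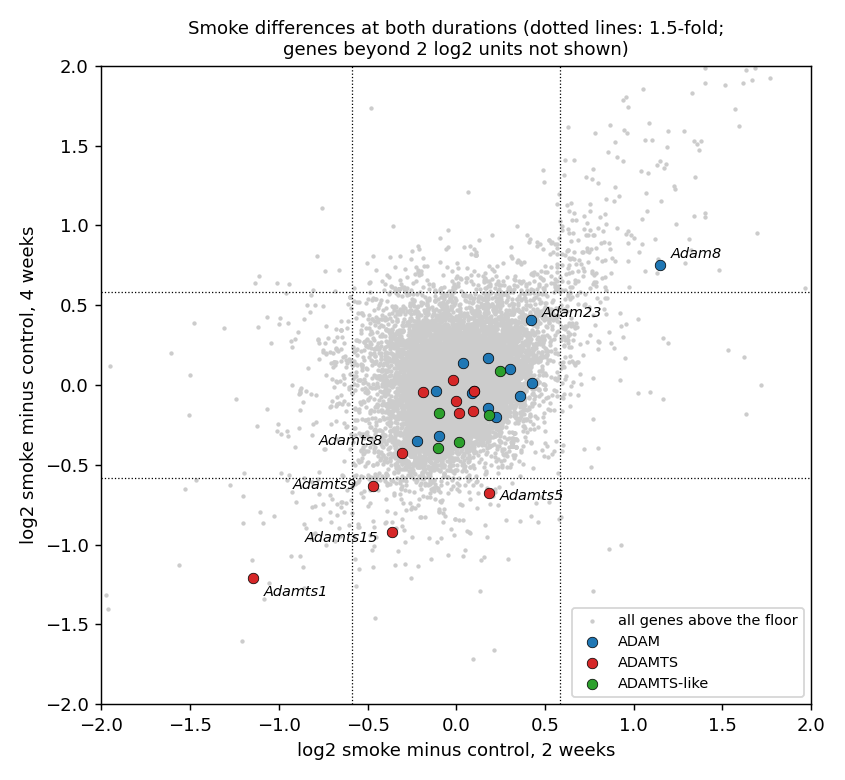
The log2 smoke difference at 4 weeks (vertical) against that at 2 weeks (horizontal) for genes above the floor with both differences within 2 log2 units, with grey points for all genes and coloured points for the 30 members. Adam8 lies at 1.15 and 0.75, Adamts1 at -1.15 and -1.21, and Adamts15, Adamts5 and Adamts9 lie past the 1.5-fold line at 4 weeks and not at 2 weeks.

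Adamts1 had the largest fall of the family. Its log2 signal was 12.88 and 12.71 in clean air at 2 and 4 weeks and 11.74 and 11.50 in smoke. Both smoke pools lay below both control pools, with a gap of 0.98 between the lower control and the higher smoke pool. The difference was -1.15 at 2 weeks and -1.21 at 4 weeks, the 26th and 18th lowest among 18084 genes. The control pools differed by -0.17. The effect over both durations was -1.18 ± 0.101 (adjusted p = 0.00626). With the arrays centred on the median of the genes above the floor, the effect was -1.18 and the call was lost (adjusted p = 0.0652, with 1.09e-12 to 0.717 over all alternatives). Fits of 3 arrays leave no residual for a duration term and hold 1 group as a single pool, assumed to vary like the other. Without either smoke pool they called 0 of 18084 genes, so the missing call there says nothing about Adamts1, and without the 2-week or 4-week control they called 6 and 34 genes, Adamts1 not among them. The effects were -1.09 without the 2-week control, -1.29 without the 2-week smoke, -1.26 without the 4-week control and -1.06 without the 4-week smoke pool.

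Adamts1 is known as a gene that is transcribed quickly after a stimulus. Genes of the immediate early response were lower in the same pools. Of 12 measured genes of 13 listed, 10 fell and 0 rose, with a median difference of -1.76 at 2 weeks and -1.10 at 4 weeks. Their summed signal was 249216 and 194623 in the 2-week and 4-week control pools and 112573 and 107132 in the 2-week and 4-week smoke pools. The lowest deposited value of any feature was 4.93, so no gene could be at 0. Fos, a subunit of the AP-1 transcription factor, was 12.84 and 12.13 in clean air at 2 and 4 weeks and 10.03 and 10.01 in smoke. Between the clean-air pools, 4 weeks minus 2 weeks, these genes had a median of -0.69, while Adamts1 was at -0.17. Endothelial markers, of which 9 of 10 were measured, had medians of -0.14 and -0.30, and 1 of them fell, the tight junction gene Cldn5 (-0.81 ± 0.102). Their summed signal went from 331662 to 292298 at 2 weeks and from 321545 to 257946 at 4 weeks. The part of either list in the Adamts1 difference was not tested. In whole lung, fewer cells of a type and less RNA per cell cannot be told apart.

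The promoters of 3 members are shown because these genes had the clearest differences at both durations among those with an entry in the RefSeq promoter table, which held 29 of the 54 members. Each line gives the 250 bases before the RefSeq start on GRCm38.p6, written 5′ to 3′ on the gene's strand. Capitals mark matches, on either strand, to TGACG, the core of the cAMP response element, to TATAAA, the TATA box, and to GGGCGG, the GC box. No 2 marked matches overlapped. The windows are chr16:85803114-85803363 for Adamts1, chr6:92943535-92943784 for Adamts9 and chr7:139992563-139992812 for Adam8, all on the minus strand.
Adamts1: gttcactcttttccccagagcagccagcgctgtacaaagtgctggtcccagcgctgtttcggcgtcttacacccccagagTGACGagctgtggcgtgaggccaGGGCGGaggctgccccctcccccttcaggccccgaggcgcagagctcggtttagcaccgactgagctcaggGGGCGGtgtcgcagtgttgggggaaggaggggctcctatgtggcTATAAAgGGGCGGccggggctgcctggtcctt
Adamts9: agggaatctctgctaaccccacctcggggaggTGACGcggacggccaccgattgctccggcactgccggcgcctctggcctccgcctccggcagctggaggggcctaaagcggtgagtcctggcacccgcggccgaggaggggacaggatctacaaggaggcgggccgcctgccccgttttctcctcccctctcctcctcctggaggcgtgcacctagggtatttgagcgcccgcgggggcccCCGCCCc
Adam8: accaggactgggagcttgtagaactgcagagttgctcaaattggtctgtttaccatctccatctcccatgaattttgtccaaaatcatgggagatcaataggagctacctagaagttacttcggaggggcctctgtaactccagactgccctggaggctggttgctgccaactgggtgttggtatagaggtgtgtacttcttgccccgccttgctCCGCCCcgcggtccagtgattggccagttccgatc
The Adamts1 window held TGACG from base -170 to -166 and TATAAA from -32 to -27, counted back from the start, and 3 GC boxes. The Adamts9 window held TGACG from -218 to -214 and 1 GC box on the opposite strand. The Adam8 window held 1 GC box on the opposite strand and no TATAAA or TGACG. Among 32851 RefSeq promoter windows of the same length, 17.8% held TGACG, 12.4% TATAAA and 32.7% GGGCGG. Of the 29 members with a window, 6, 5 and 14 held them in at least 1 of their windows. A gene can have several windows, so these counts per gene are not comparable with the shares per window. The AP-1 sequence TGANTCA was searched as well and was in 6.75% of all windows. By the same count per gene it was in 4 of the 29 members, and it was in none of the 3 windows shown. These are matches of letters and say nothing of whether a factor binds.

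The proteoglycan-cutting ADAMTS proteases, or hyalectanases, were lower at 4 weeks as a group. The list held 7 members, of which 5 were above the floor, and all 5 were lower in the 4-week smoke pool than in its control, by 0.42 to 1.21 log2 units. Their median difference was -0.36 at 2 weeks and -0.67 at 4 weeks, beside 0.01 and -0.02 over all genes above the floor. The 6 other ADAMTS genes above the floor had medians of 0.01 and -0.07. All 5 were also lower at 4 weeks after cyclic loess. Median centring moved every 4-week difference by -0.067, so it could not have made any of the 5 higher. Over all genes 53.5% were lower at 4 weeks, and 61.1% of protein-coding ones. Between the controls 4 of 5 were higher at 4 weeks, against 9420 of 18084 genes and 7454 of 12583 protein-coding ones. Their median was 0.23, so the 4-week difference is taken against a higher control. Adamts9 and Adamts8 were not lower in 4-week than in 2-week smoke. Of the 5, 4 were lower in both smoke pools than in both control pools, against 16.8% of all genes and 19% of protein-coding ones. Only Adamts1 passed the test.

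Adamts9, which cuts versican and is also needed for cell-surface and ciliary functions, was 10.42 and 10.73 in clean air at 2 and 4 weeks and 9.95 and 10.10 in smoke. The smoke pools lay below the controls with a gap of 0.32. The differences were -0.47 and -0.63, and the effect of -0.55 ± 0.105 did not pass (adjusted p = 0.0792). A fit of protein-coding genes alone called more genes, 884 of 12583, against 265 of 18084 in the fit of all genes. When only protein-coding genes were fitted, the same effect had an adjusted p of 0.00256, and the range over all alternatives ran from there to 1.00.

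Adamts15, an aggrecan- and versican-cutting protease, was 8.64 and 8.87 in clean air at 2 and 4 weeks and 8.27 and 7.95 in smoke. The groups did not overlap, and the 4-week smoke pool was the lowest. The difference was -0.36 at 2 weeks and -0.92 at 4 weeks, the 64th lowest of 18084 genes at 4 weeks. The effect of -0.64 ± 0.149 did not pass (adjusted p = 0.138), and it had an adjusted p of 0.00442 among protein-coding genes alone, within a range of 0.000841 to 1.00 over all alternatives.

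Adamts8, a protease of the same branch that was described in lung and vessels, was 8.52 and 8.75 in clean air and 8.21 and 8.32 in smoke. The smoke pools were the lower ones, with a gap of 0.20 and differences of -0.31 and -0.42. The effect was -0.36 ± 0.103 (adjusted p = 0.221), with an adjusted p of 0.0345 among protein-coding genes alone and 0.0345 to 1.00 over all alternatives. Adamts8 and Adamts15 are neighbours in the RefSeq gene table, with no protein-coding gene between them.

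Adamts5, the main aggrecan-cutting protease of cartilage, had another pattern. It was 8.68 and 8.73 in clean air at 2 and 4 weeks and 8.87 and 8.06 in smoke. The 4-week smoke pool stood below the other 3, which lay within 0.18 of each other. The difference was 0.18 at 2 weeks and -0.67 at 4 weeks, the 167th lowest at 4 weeks. The change of the smoke difference between durations was -0.86, outside the central 95% of all genes, -0.51 to 0.66. Without the 4-week smoke pool the effect over both durations was 0.16, against -0.24 ± 0.197 with all pools (adjusted p = 0.757). The change between durations was not tested, as 4 single pools leave no error for it. Adamts5 lies next to Adamts1 in the RefSeq table.

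**Figure D2:**
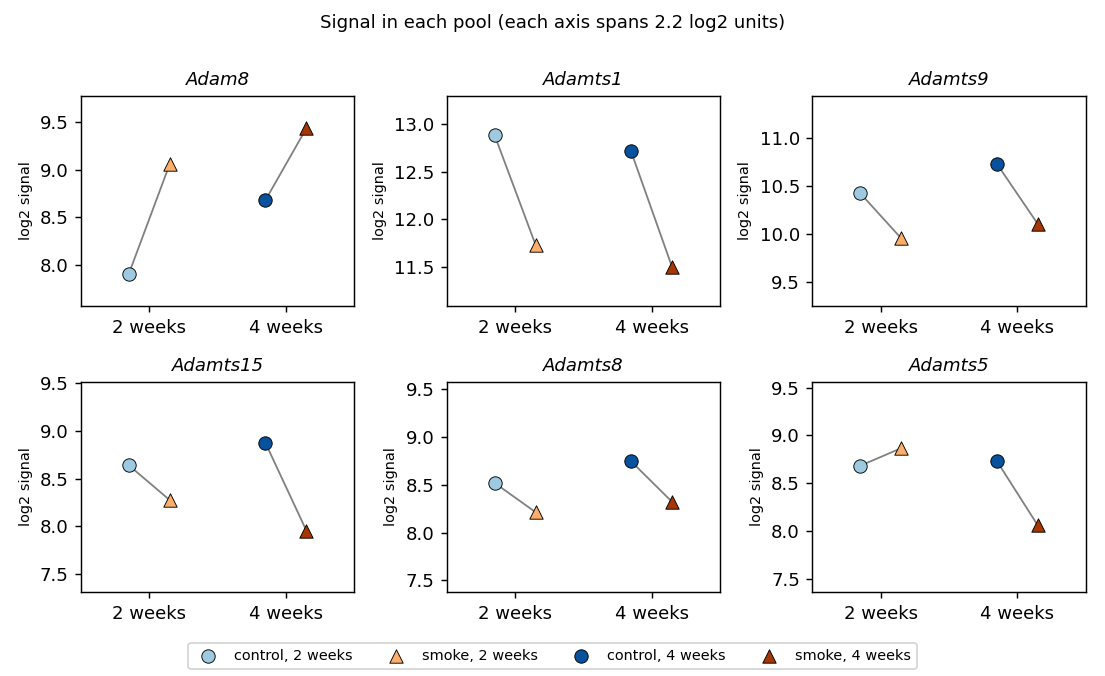
Log2 signal of Adam8 and of the 5 hyalectanases above the floor in each pool, with circles for clean air, triangles for smoke and a line joining the pools of one duration. Adam8 is higher in smoke at both durations, Adamts1, Adamts9, Adamts15 and Adamts8 are lower at both, and Adamts5 is lower only at 4 weeks.

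Markers of stromal cells were compared in the same pools. Fibroblast markers, of which 9 of 10 were measured, had medians of 0.10 at 2 weeks and -0.03 at 4 weeks, and the collagen gene Col3a1 rose. Their summed signal was 80458 and 83672 in the 2-week and 4-week controls and 88379 and 79641 in the matching smoke pools. Smooth muscle and pericyte markers, all 10 measured, had medians of -0.03 and -0.43, and none passed. Their summed signal was 55685 and 65263 in the controls and 55494 and 46964 in the smoke pools. Mesothelial markers had medians of 0.24 and -0.46 over 5 genes, cardiac muscle markers of -0.29 and -0.51 over 7 genes and adipose markers of 0.25 and -0.40 over 6 genes. Between the controls, 4 weeks minus 2 weeks, the medians were 0.28 for smooth muscle, 0.65 for mesothelial, 0.22 for cardiac and 0.43 for adipose markers. The summed mesothelial signal was 9707 and 12567 in the controls and 10562 and 10118 in smoke, and the adipose one 1991 and 4185 in the controls and 3288 and 2376 in smoke, so in these lists the 4-week control stood high. The cardiac sum was 12753 and 16916 in the controls and 10526 and 9490.5 in smoke. With a lowest deposited value of 4.93, no marker could be at 0. The part of these lists in the 4-week differences was not tested.

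The remaining ADAMTS genes differed little. Adamts10, a protease of fibrillin microfibrils, was 11.63 and 11.60 in clean air and 11.73 and 11.43 in smoke, with differences of 0.10 and -0.16. Adamts6, its close relative, was at 0.02 and -0.18. Adamts12, which cuts cartilage oligomeric matrix protein, was at -0.19 and -0.05, and Adamts17 at -0.00 and -0.10. The procollagen-trimming enzymes Adamts3 and Adamts14 were at 0.10 and -0.04 and at -0.02 and 0.03. The signal of Adamts14 was near the floor of 5.82, between 5.84 and 5.90, which limits what its small differences show. The effects of these 6 genes lay between -0.12 and 0.03, and none passed. Of all 11 ADAMTS genes above the floor, 7 were lower at 2 weeks and 10 at 4 weeks, against 48.6% and 53.5% of all genes and 43.5% and 61.1% of protein-coding ones, with medians of -0.02 and -0.18. After cyclic loess, 11 of 11 were lower at 4 weeks.

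The floor kept 7 ADAMTS genes out of the test: Adamts4, Adamts7, Adamts13, Adamts16, Adamts18, Adamts19 and Adamts20. They include the aggrecan-cutting enzyme Adamts4 and the von Willebrand factor protease Adamts13. Their log2 signals lay between 4.92 and 5.60 in the 4 pools, with smoke differences of -0.10 to 0.12. The floor is a rank among genes and not a detection limit. In a fit with no floor, which held all 54 members, Adam8 and Adamts1 were the 2 that passed.

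All 5 ADAMTS-like genes were above the floor, and none passed or differed by 1.5-fold under smoke. Adamtsl4, a microfibril-binding protein known from the zonule of the eye, was 10.72 and 11.39 in clean air at 2 and 4 weeks and 10.73 and 11.03 in smoke. The 4-week control pool was the highest, 0.67 above the 2-week control and 1.59-fold on the linear scale, while the smoke differences were 0.01 and -0.36. Adamtsl1 was at -0.10 and -0.39, Adamtsl3 at -0.10 and -0.18, and Adamtsl5 at 0.18 and -0.19. Adamtsl2, which binds latent TGF-beta binding protein 1, was at 0.25 and 0.09. The median of the 5 was 0.01 at 2 weeks and -0.19 at 4 weeks. Between the controls it was 0.24, with 4 of 5 higher at 4 weeks, against 9420 of 18084 genes and 7454 of 12583 protein-coding ones.

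Adam8 was the only ADAM gene to pass. Its log2 signal was 7.91 and 8.68 in clean air at 2 and 4 weeks and 9.06 and 9.43 in smoke. Both smoke pools lay above both controls, with a gap of 0.38. The difference was 1.15 at 2 weeks and 0.75 at 4 weeks, or 2.22-fold and 1.69-fold, the 71st and 232nd highest of 18084 genes. The control pools differed by 0.77, as much as smoke and control at 4 weeks. The effect was 0.95 ± 0.128 (adjusted p = 0.0270). The call was lost after cyclic loess, where the effect was 0.96 (adjusted p = 0.0827, with 1.81e-07 to 1.00 over all alternatives), and after centring on the genes above the floor (adjusted p = 0.112). Adam8 was not among the 6 and 34 genes called without the 2-week or the 4-week control. Without either smoke pool 0 genes were called, which says nothing about Adam8. The effects in the fits of 3 arrays were 0.57 without the 2-week control, 1.14 without the 2-week smoke, 1.34 without the 4-week control and 0.77 without the 4-week smoke pool.

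ADAM8 is made by neutrophils and macrophages, and the myeloid markers are therefore given beside it. Of 7 measured alveolar macrophage markers of 10 listed, 5 rose and 1 fell, with medians of 1.71 and 2.10. Their summed signal was 12490 and 13731 in the 2-week and 4-week controls and 33310 and 49837 in the smoke pools. Itgax, the CD11c integrin chain, was 9.72 and 10.16 in clean air at 2 and 4 weeks and 11.43 and 12.31 in smoke. The list did not move as one, as Siglecf had differences of -0.13 and 0.13 and did not pass. Fabp1, the 1 that fell, had differences of -0.85 and -0.90. Of 9 measured monocyte and interstitial macrophage markers, 3 rose, with medians of 0.56 and 0.70 and summed signals of 50932 and 89450 in the controls and 61411 and 79059 in the smoke pools. Most of that sum was Ly6c2, a monocyte surface gene, at 46830 and 84353 in the controls and 55611 and 70893 in smoke, while 8 of the 9 markers were higher in smoke at 4 weeks. Neutrophil markers had medians of 0.01 and -0.90 over the 7 of 10 above the floor, and none passed. Between the controls the neutrophil median was 1.00 and the monocyte median 0.32, beside 0.77 for Adam8. The part of these cells in the Adam8 difference was not tested.

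The other 7 measured sheddases did not pass. Adam10, the protease of Notch and cadherins, was 13.50 and 13.40 in clean air at 2 and 4 weeks and 13.61 and 13.36 in smoke, with differences of 0.10 and -0.04. Adam17, which releases tumour necrosis factor and ligands of the EGF receptor, was 11.41 and 11.39 in clean air and 11.59 and 11.56 in smoke. Its differences of 0.18 and 0.17 were alike and both smoke pools lay above the controls, but the effect of 0.18 ± 0.100 was not past the threshold (adjusted p = 0.620).

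Adam9 was at 0.09 and -0.05, and Adam15, a disintegrin of endothelial and epithelial cells, at 0.18 and -0.14. Its clean-air pools were 0.53 apart, with that of 4 weeks higher. Adam19 was at 0.43 and 0.02, Adam28, known from lymphocytes, at 0.30 and 0.10, and Adam33, known from airway smooth muscle, at 0.04 and 0.14. All 8 sheddases were higher at 2 weeks, also after cyclic loess, against 51.3% of all genes and 56.4% of protein-coding ones. Median centring moved every 2-week difference by 0.020, so it could not have made any of the 8 lower. At 4 weeks 5 of 8 were higher, against 46.5% of all genes and 4892 of 12583 protein-coding ones. The medians were 0.18 and 0.06. At 4 weeks 4 of 8 were higher after median centring, with a median of -0.01, and 7 of 8 after cyclic loess.

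Adam22 and Adam23 have no active zinc site and serve as receptors for LGI proteins in nerve cells. Adam23 was 7.58 and 7.59 in clean air at 2 and 4 weeks and 8.005 and 7.993 in smoke. The 2 control pools were within 0.01 of each other and so far below both smoke pools that the gap was 0.41. Its effect of 0.41 ± 0.101 did not pass (adjusted p = 0.157), though it had an adjusted p of 0.0154 among protein-coding genes alone, within 0.0154 to 1.00 over all alternatives. That fit called 884 of 12583 genes, against 265 of 18084 in the fit of all genes. Adam22 was at -0.22 and -0.35, the opposite direction to Adam23, with an effect of -0.29 ± 0.104 (adjusted p = 0.349).

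The remaining 20 ADAM genes are known mainly from testis and epididymis, and 4 of them were above the floor. Adam4 was at 0.22 and -0.20, Adam5 at 0.36 and -0.07, Adam3 at -0.10 and -0.32, and Adam21 at -0.12 and -0.04, and none passed. The other 16, with the brain gene Adam11, lay at or under the floor: Adam1b, Adam2, Adam6a, Adam6b, Adam7, Adam18, Adam20, Adam24, Adam25, Adam26a, Adam26b, Adam29, Adam30, Adam32, Adam34l and Adam39. Their log2 signals lay between 3.69 and 5.54, with smoke differences of -0.52 to 0.40. Direct neighbours in the RefSeq table made up 12 pairs of members, but 3 of these pairs had both genes above the floor: Adamts1 with Adamts5, Adamts8 with Adamts15, and Adam3 with Adam5.

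**Figure D3:**
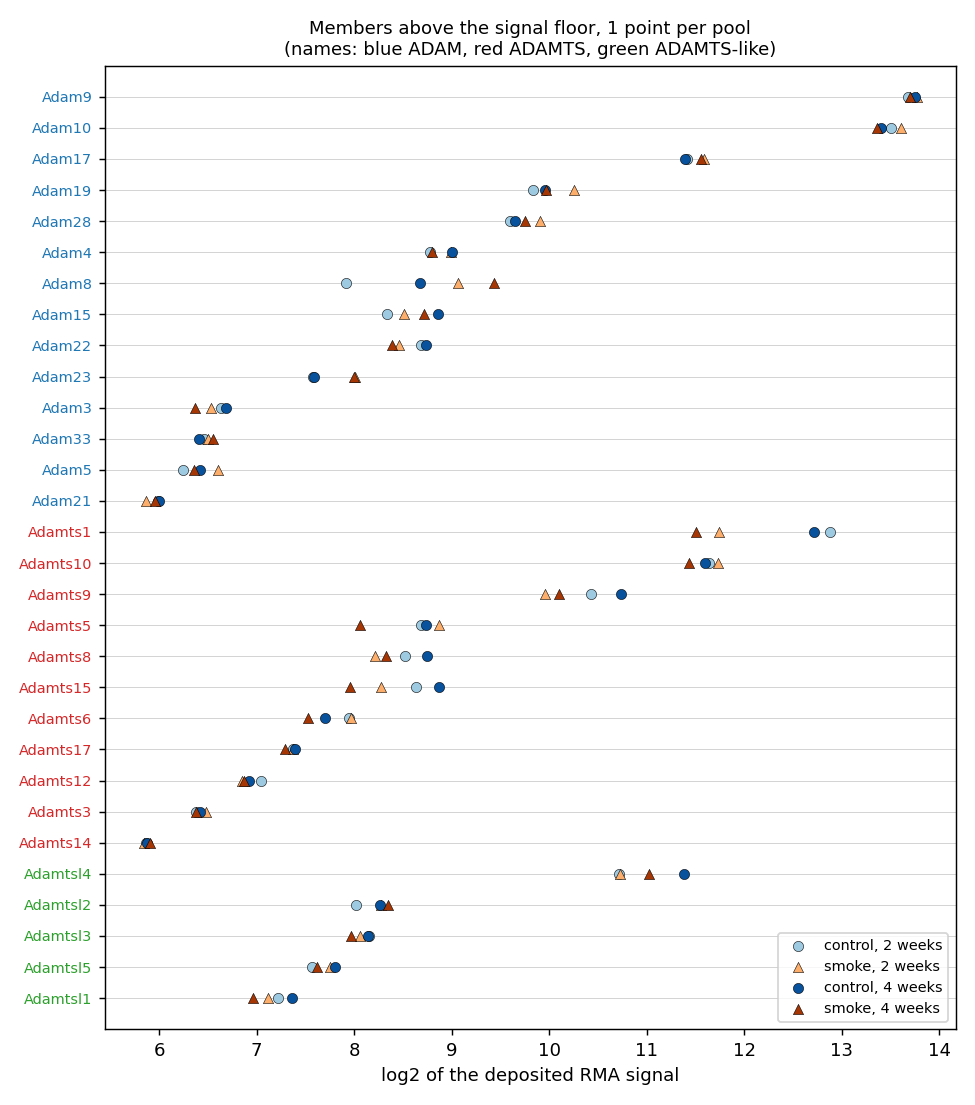
Log2 signal (horizontal) of each of the 30 members above the floor in the 4 pools, with circles for clean air and triangles for smoke, grouped into ADAM, ADAMTS and ADAMTS-like genes. Signals of different genes come from different probes and their levels are not to be compared; within a row, the gap between the smoke and the control pools is 0.98 for Adamts1, 0.41 for Adam23 and 0.38 for Adam8.

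The 3 families were then set side by side. At 2 weeks 11 of 14 ADAM, 4 of 11 ADAMTS and 3 of 5 ADAMTS-like genes were higher in smoke. The shares were 51.3% of all genes and 56.4% of protein-coding ones. The family medians were 0.18, -0.02 and 0.01, beside 0.01 for all genes. At 4 weeks 6 of 14, 1 of 11 and 1 of 5 were higher, against 46.5% of all genes and 4892 of 12583 protein-coding ones. The ADAM count at 4 weeks and the ADAMTS-like count at 2 weeks were near these shares. Family medians at 4 weeks were -0.04, -0.18 and -0.19, beside -0.02 for all genes and -0.05 for the protein-coding ones. After cyclic loess the ADAM median at 4 weeks was 0.01, and after centring on the genes above the floor the ADAMTS-like median at 2 weeks was -0.02. Both smoke pools lay above both controls in 6 ADAM, 0 ADAMTS and 1 ADAMTS-like gene, against 15.7% of all genes. Both lay below in 3, 6 and 2 genes, against 16.8%. The families were not tested against each other.

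**Figure D4:**
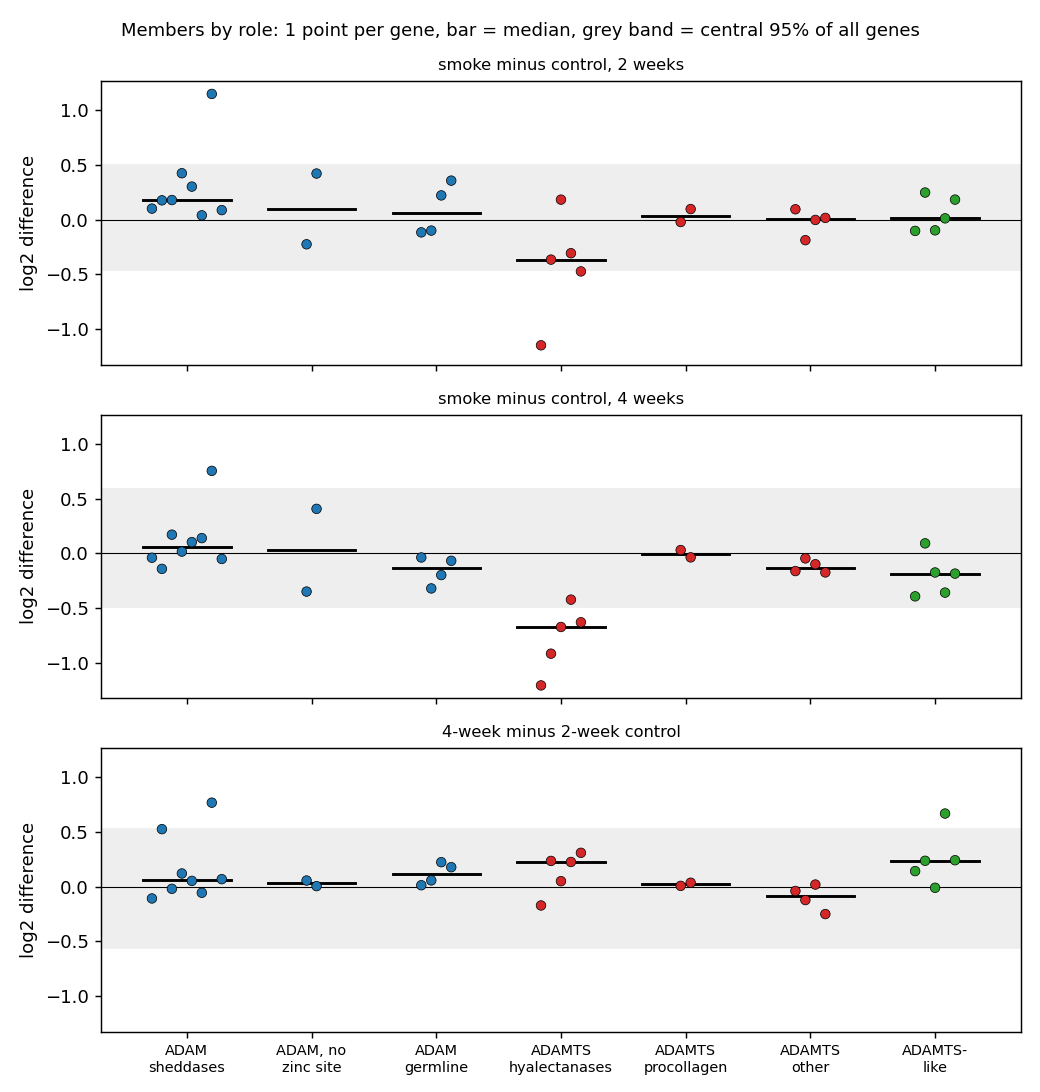
Log2 differences of the members above the floor by role, for smoke minus control at 2 weeks (top), at 4 weeks (middle) and for the 4-week minus the 2-week control (bottom). Each point is a gene, the bar is the group's median and the grey band holds the central 95% of all genes; the hyalectanases have medians of -0.36, -0.67 and 0.23.

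Genes that work with these proteases were compared next. Of 12 sheddase partners above the floor, which include the iRhom cofactors of ADAM17, the tetraspanins of ADAM10 and the convertases that activate the proenzymes, none passed. Their medians were 0.05 and -0.02. Rhbdf2, the iRhom of immune cells, was at 0.15 and 0.16, and the convertase Furin at 0.16 and 0.37. Of 3 measured genes that glycosylate thrombospondin repeats, none passed.

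Among 6 inhibitors and clearance genes above the floor, Timp1 rose. Timp1 was 6.44 and 6.65 in clean air at 2 and 4 weeks and 7.21 and 7.36 in smoke, and its effect was 0.74 ± 0.101 (adjusted p = 0.0287). The call was lost after cyclic loess (adjusted p = 0.0827), after centring on the genes above the floor (0.110) and without the duration term (0.214), within 0.000191 to 1.00 over all alternatives. Timp3, the matrix-bound inhibitor of ADAM17 and of the aggrecan-cutting ADAMTS enzymes, was 12.50 and 12.52 in clean air and 12.13 and 12.19 in smoke. Its smoke pools were lower by 0.37 and 0.33 log2 units, and the effect of -0.35 ± 0.101 did not pass (adjusted p = 0.233). Reck, a membrane-anchored inhibitor, was at -0.19 and -0.70. The list's medians were -0.00 and 0.03.

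Of 19 sheddase substrates above the floor, Cd44, the hyaluronan receptor, rose (0.72 ± 0.104, adjusted p = 0.0321) and 18 did not pass. The call was lost after cyclic loess (adjusted p = 0.0827), after centring on the genes above the floor (0.133) and without the duration term (0.163), within 0.000259 to 0.904 over all alternatives. Its signal was 12.31 and 12.27 in clean air at 2 and 4 weeks and 12.97 and 13.06 in smoke. Hbegf, an EGF receptor ligand, was at -0.49 and -0.58. Tnf, the best known ADAM17 substrate, was at 0.40 and 0.94 with an effect of 0.67 ± 0.147 (adjusted p = 0.120). Its signal in clean air was near the floor of 5.82, at 5.88 and 5.72, and was 6.28 and 6.66 in smoke. The chemokine Cxcl16 was at 0.59 and 0.48. The list's medians were 0.02 and -0.10.

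Of 14 ADAMTS substrates and matrix partners above the floor, Col3a1, a procollagen, rose (0.71 ± 0.105, adjusted p = 0.0340) and 13 did not pass. Col3a1 was 11.62 and 11.43 in clean air and 12.26 and 12.22 in smoke. Vcan, the versican gene, whose product hyalectanases cut, was 7.14 and 7.21 in clean air and 7.28 and 7.05 in smoke, with differences of 0.14 and -0.16. Thbs1, the thrombospondin 1 gene, was at least 1.5-fold lower at both durations, with differences of -1.47 and -0.60 and an effect of -1.03 ± 0.200 (adjusted p = 0.0823). The list's medians were 0.12 and 0.09. Col3a1 no longer passed after cyclic loess (adjusted p = 0.0851), after centring on the genes above the floor (0.137) and without the duration term (0.195), within 0.000293 to 0.963 over all alternatives. In fits of 3 arrays Timp1, Cd44 and Col3a1 did not pass either, with effects of 0.62 to 0.84, and without a smoke pool no gene did.

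**Figure D5:**
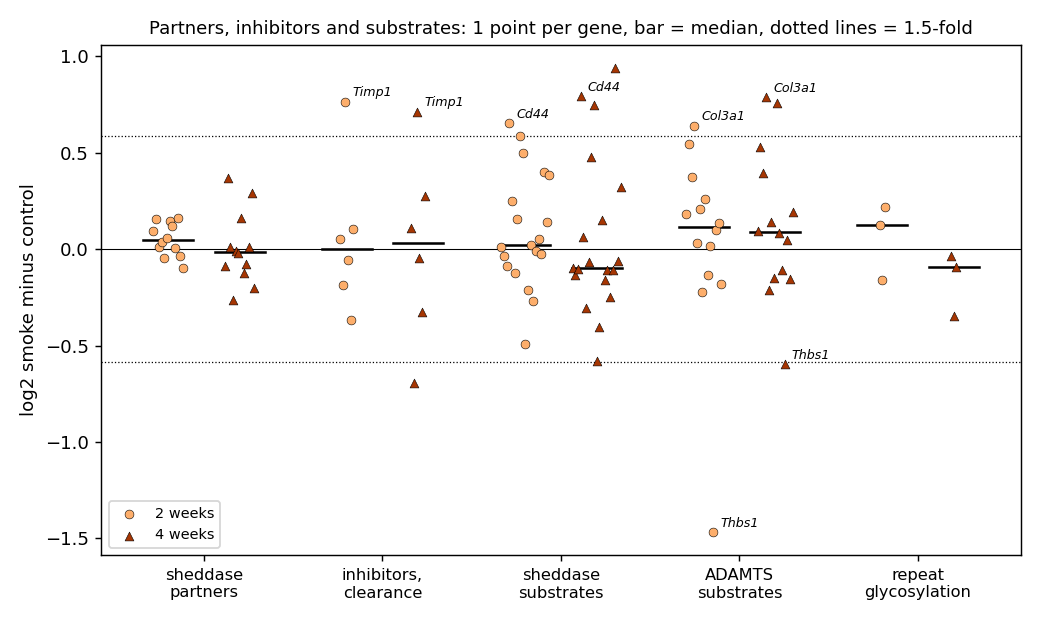
Log2 smoke minus control at 2 weeks (circles) and 4 weeks (triangles) for the genes of 5 lists of partners, inhibitors and substrates above the floor, with the list's median as a bar. Timp1, Cd44 and Col3a1 lie above the upper 1.5-fold line at both durations and Thbs1 below the lower one.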

How the data were processed

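RNA of 4 lung pools was measured on 4 arrays. Per the submitters' processing notes, the authors made the intensity values with RMA in Affymetrix Expression Console 1.4.1; the deposited intensities are on a linear scale of unknown base, and no genome build or filter is named in the sources used here. RMA makes the arrays' distributions alike, so a shift of all genes in 1 pool is removed. Values ran to 845602, with 541 to 581 features per array above 65535, where a 16-bit scan ends. Base 2 was assumed; with base e all log2 differences would be 0.69 times those given.

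Of 65956 features, 30604 had 1 gene symbol, and 22818 of these were matched by Entrez ID to a RefSeq gene table of GRCm38.p6. Per gene the feature with the highest mean log2 signal was used, and a floor at the 40th percentile over genes (log2 5.82) left 18084 genes. limma 3.58.1 in R 4.3.3 was fitted to all of them with smoke and duration as terms, with Benjamini-Hochberg adjustment; the prior had 5.38 degrees of freedom. The step was also run on simulated data with noise drawn from the same fitted prior, so that run cannot check the prior. Differences of 1.5-fold between single arrays were counted without a test.

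By the rule for named genes, members past the test or past 1.5-fold the same way at both durations get full statistics, other members above the floor values, and list genes are named where they pass or differ 1.5-fold at both durations. Full statistics of other members, and the other list and marker genes named, were chosen after their values were seen. The members and gene lists were chosen with earlier results of these data known, so no list is independent evidence of its direction. Alternatives were other scalings, floors, feature choices, bases, models and priors, protein-coding genes alone, and leaving out each array. The table held 0 columns of other samples.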

Additional observations from a re-analysis of the deposited data

How the results depend on the processing

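The number of members past limma was 2 and became 4 with median centring over all features with 1 gene, where limma's prior degrees of freedom were infinite, 0 with centring over the genes above the floor, an alternative added after the data were seen, 1 after cyclic loess, 0 without the duration term and 6 among protein-coding genes alone. The calls over all genes moved with them: 265 of 18084 as reported, then 600, 8, 52 and 0, and 884 of 12583 protein-coding genes. No member passed when any array was left out, in fits without duration where 1 group was a single pool. The fit without the duration term and that centred above the floor each had 7 of 30 members at an unadjusted p under 0.05. Over all 18084 genes these 2 fits had 1163 and 2034 such genes. With no floor or a trended prior, Adam8 and Adamts1 were the 2 that passed, and a floor at the 50th percentile added Adamts9. The same 2 passed with means over features and with base e, but these alternatives are no check of the member calls. Every member had a single feature, so its values stayed the same, and base e scales all values alike. With base e, the members past 1.5-fold numbered 2 at 4 weeks, 1 at both durations and 0 between controls. The ADAM median at 2 weeks was 0.045 and the ADAMTS median at 4 weeks -0.048 with no floor; with the floor at the 50th percentile the ADAMTS medians were -0.19 and -0.42. The Adamts5 effect of -0.24 ran from -0.65 without the 2-week smoke pool to 0.16 without the 4-week smoke pool. The cause of these changes was not tested. Among the 23 other members above the floor, 0 to 5 effects changed sign under an alternative, none of them called. The duration term already sets each smoke pool against the control of its own duration, and no further replicate block could be fitted, since each group had 1 pool and the labels number no replicates. Low signal limits what can be said of 24 members.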
